A study of Mus musculus with 12 samples.

Results

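Endoplasmic reticulum unfolded protein response genes were followed in MC38 cells, a mouse colon adenocarcinoma line, as a set of 36 genes named by symbol. All 36 had an entry among the 42329 entries of the table. RNA was sequenced from 12 libraries in 4 groups of 3, namely cells with a guide RNA against Hcar1 (sgHcar1) in 20 mM lactate, sgHcar1 cells in PBS, cells with a control guide (sgControl) in 20 mM lactate, and sgControl cells in PBS. Lactate was given for 24 hours, and Hcar1 encodes a G protein-coupled receptor for lactate. The labels say neither how many clones stand behind a guide population nor where replicate libraries were split, so p-values measure only the spread between these libraries, which may be technical.

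The endoplasmic reticulum (ER) folds proteins that enter the secretory pathway. When unfolded protein accumulates there, the membrane sensors IRE1 (gene Ern1), ATF6 and PERK are released from the chaperone BiP (gene Hspa5). IRE1 splices the Xbp1 message into the template of an active transcription factor, ATF6 is cut in the Golgi to free its own factor, and PERK slows translation and raises ATF4. Their targets include chaperones, disulfide isomerases, the machinery of ER-associated degradation (ERAD) and parts of the translocation and export apparatus, and tumour cells with a high secretory load use them heavily.

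Promoter windows of 300 bases, 250 before and 50 after an annotated start, were taken from RefSeq on GRCm38.p6 and matched 30 of the 36 genes (Atf6, Derl1, Hyou1, Manf, Sec61a1 and Sil1 had none). They are shown because the ER stress response element (ERSE, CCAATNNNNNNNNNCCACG), which binds NF-Y and ATF6 or XBP1, lies in this stretch of classical target genes. Searched on both strands, ERSE was found in 9 of the 30 genes (30%) and in 39 of 32851 windows of all genes (0.119%). The shorter ERSE-II (ATTGGNCCACG) was found in 2 of the 30 genes (6.67%) and in 12 windows of all genes (0.0365%). The XBP1 element UPRE (TGACGTGG) was found in 1 of the 30 (3.33%) and in 222 windows (0.676%). No match of one motif overlapped a match of another in these genes. The whole Hspa5 window comes first below, followed by the stretch around each other match with 15 flanking bases, each on the gene's own strand, 5′ to 3′, with the fixed bases of the motif in capitals. Where the match lies on the opposite strand, the capitals read CGTGG before ATTGG.
Hspa5 (chr2:34771840-34772139, plus strand): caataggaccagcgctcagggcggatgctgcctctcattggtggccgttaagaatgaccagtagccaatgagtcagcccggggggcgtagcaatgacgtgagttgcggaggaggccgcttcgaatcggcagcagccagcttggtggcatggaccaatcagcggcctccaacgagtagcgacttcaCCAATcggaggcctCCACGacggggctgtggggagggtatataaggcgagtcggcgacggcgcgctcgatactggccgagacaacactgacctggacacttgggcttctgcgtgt
Hsp90b1, ERSE on both strands (chr10:86705518-86705671, minus strand): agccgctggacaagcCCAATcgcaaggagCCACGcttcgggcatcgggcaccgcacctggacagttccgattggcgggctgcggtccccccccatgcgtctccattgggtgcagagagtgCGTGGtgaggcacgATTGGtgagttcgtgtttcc
Calr, ERSE (chr8:84847060-84847108, minus strand): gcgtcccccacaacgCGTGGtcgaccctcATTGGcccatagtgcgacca
Canx, ERSE (chr11:50325785-50325833, minus strand): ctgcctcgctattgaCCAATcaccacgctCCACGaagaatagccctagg
Creld2, ERSE (chr15:88819505-88819553, plus strand): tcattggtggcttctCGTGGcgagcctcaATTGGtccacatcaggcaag
Dnajc3, ERSE (chr14:118937812-118937860, plus strand): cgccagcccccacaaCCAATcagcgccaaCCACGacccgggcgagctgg
Pdia6, ERSE (chr12:17266476-17266524, plus strand): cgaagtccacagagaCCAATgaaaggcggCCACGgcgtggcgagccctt
Syvn1, ERSE (chr19:6046517-6046565, plus strand): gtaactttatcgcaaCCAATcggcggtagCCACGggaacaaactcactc
Derl3, ERSE (chr10:75893227-75893275, plus strand): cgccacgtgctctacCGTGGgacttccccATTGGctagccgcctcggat
Herpud1, ERSE-II (chr8:94386362-94386402, plus strand): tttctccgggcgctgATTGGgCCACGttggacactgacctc
Dnajb11, ERSE-II (chr16:22857837-22857877, plus strand): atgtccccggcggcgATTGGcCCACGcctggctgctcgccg
Sec24d, UPRE (chr3:123267455-123267492, plus strand): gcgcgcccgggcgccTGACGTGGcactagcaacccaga

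Levels are in FPKM, fragments per kilobase of gene model scaled to the library's fragments, so they can be set side by side between genes. The files hold no read counts, so absolute depth is unknown. From the steps between low values, the depth relative to the deepest library was 0.746 to 0.793 in sgHcar1 cells with lactate and 0.865 to 1 in the other groups. Summed over all genes, FPKM came to 411996 to 421984 in sgHcar1 cells with lactate, 362815 to 367977 in sgHcar1 cells with PBS, 310109 to 317330 in sgControl cells with lactate and 322359 to 324562 in sgControl cells with PBS. Hcar1 was listed at 0 in 11 of 12 libraries and at 0.0196 FPKM in 1 sgHcar1 library with PBS, so the target of the guide could not be checked. Of 9 colon epithelial markers 8 had an entry, and Epcam and Cdx2 were listed at 0 in every library. Their summed level was 110.3 to 114 FPKM in sgHcar1 cells with lactate and 44.9 to 48.5 FPKM with PBS, nearly all of it Krt18, against 4.85 to 5.16 FPKM in sgControl cells with lactate and 2.98 to 3.29 FPKM with PBS. Cdh1 and Krt19 went the other way and were listed at 0 in every sgHcar1 library. In sgControl cells Cdh1 averaged 4.53 FPKM with lactate and 1.72 FPKM with PBS, and Krt19 0.300 FPKM and 1.31 FPKM. The 8 fibroblast markers summed to 66.8 to 72.6, 141 to 150.1, 129 to 136 and 143 to 147 FPKM in the same 4 groups, with Thy1 and Lum at 0 throughout. Single fibroblast markers differed widely between guides in opposite directions, as in PBS, where Col3a1 averaged 1.55 FPKM in sgHcar1 cells and 67.2 FPKM in sgControl cells, and Col1a1 23.1 FPKM in sgHcar1 cells and 1.01 FPKM in sgControl cells. The 7 leukocyte markers summed to 4.01 to 5.54, 1.39 to 2.24, 6.19 to 6.94 and 3.90 to 5.09 FPKM, with Cd3e, Itgam and Adgre1 at 0, and the 4 endothelial markers stayed at or below 0.821 FPKM. The part of these differences in the results was not tested.

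Of the 36 genes, 35 passed the filter of at least 1 FPKM in at least 3 libraries and entered a limma fit on log2(FPKM + 1) over all genes. The lowest value of any of these 35 in any library was 3.64 FPKM, for Ern1, so none passed through a single high group. Together the 36 genes held 1.92% ± 0.0254 of all FPKM in sgHcar1 cells with lactate and 0.617% ± 0.00315 in sgHcar1 cells with PBS. In sgControl cells the shares were 1.70% ± 0.0311 with lactate and 0.632% ± 0.0108 with PBS (SD, n = 3 per group). Hspa5 alone made up 31.4% of the summed level in sgHcar1 cells with lactate, against 12.8% with PBS. In sgControl cells it made up 24.96% with lactate, against 6.72% with PBS. Without Hspa5, the summed level with lactate was still 2.78 times that with PBS in sgHcar1 cells and 2.10 times that in sgControl cells.

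**Figure D1:**
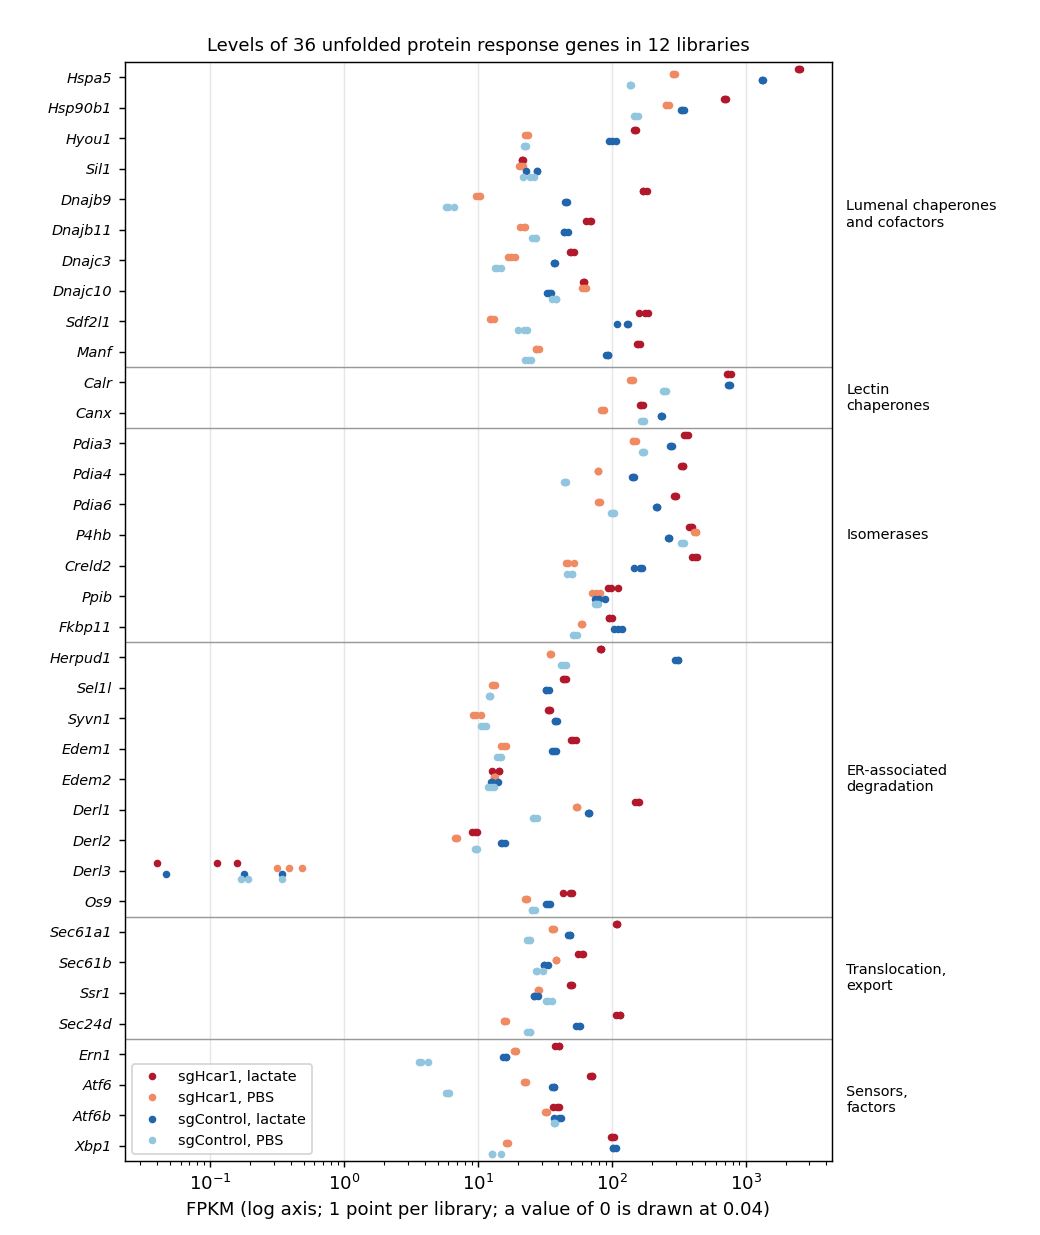
FPKM of the 36 genes on a log axis, with 1 point per library, 4 rows of points per gene for the 4 groups and genes ordered by role. The points of a group lie close together, most lactate points lie to the right of their PBS points, Sil1, Edem2 and P4hb are near exceptions, and Derl3 lies below 0.5 FPKM in every library.

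The first pair of comparisons asked what lactate did to these genes in each population. Most of them rose in both. In sgHcar1 cells 31 of the 35 rose, 1 fell and 3 did not pass an adjusted p of 0.05 (limma with Benjamini-Hochberg adjustment over 13736 genes), while 36.8% of all genes tested rose and 35.4% fell. In sgControl cells 28 rose, 3 fell and 4 did not pass, while 33.9% of all genes rose and 31.9% fell. The median log2 change of the 35 genes was 1.49 in sgHcar1 cells and 1.19 in sgControl cells, beside 0.00 in both for all genes. Rises of at least 2-fold on this scale were seen for 24 of the 35 in sgHcar1 cells (8.83% of all genes) and 21 in sgControl cells (4.26% of all genes). All 28 genes that rose in sgControl cells also rose in sgHcar1 cells. The share that did so among all genes rising in sgControl cells was not counted. The log2 scale of FPKM + 1 understates changes of the lowest genes, and in bulk RNA fewer cells with a message and less of it per cell cannot be told apart.

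**Figure D2:**
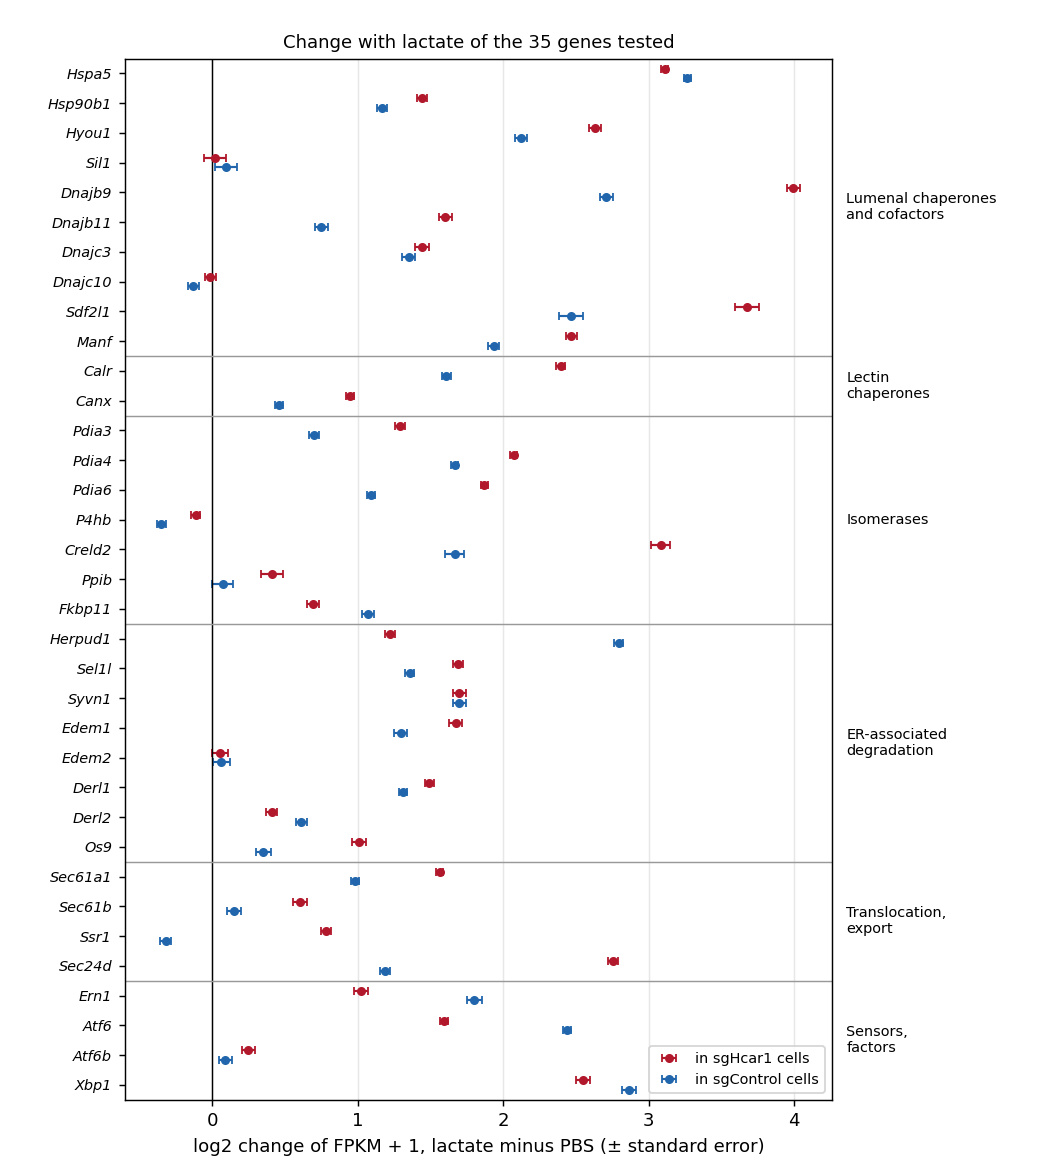
log2 change of FPKM + 1 with lactate for the 35 genes tested, as points with standard errors, in sgHcar1 cells (red, upper point of a row) and sgControl cells (blue, lower point). Most points lie right of 0, Dnajb9 and Sdf2l1 reach the largest values in sgHcar1 cells, and Herpud1, Atf6 and Ern1 have their larger change in sgControl cells.

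Among the lumenal chaperones and their cofactors, 8 of 10 rose with lactate in each population. Hspa5 (chr2:34772090-34776529), the gene of BiP, the Hsp70 chaperone that binds unfolded chains and holds the sensors inactive, stood at 2507, 2543 and 2482 FPKM in sgHcar1 cells with lactate, against 295, 285 and 289 FPKM with PBS. With the control guide it stood at 1341, 1328 and 1317 FPKM with lactate, against 136, 136 and 139 FPKM with PBS. Every lactate library lay above every PBS library, and sgHcar1 cells lay above sgControl cells under each treatment, though with quantile normalization the lactate difference between guides no longer passed (0.0421). The log2 change was 3.11 ± 0.02 in sgHcar1 cells (SE, limma adjusted p = 6.39e-14) and 3.27 ± 0.02 in sgControl cells (adjusted p = 3.86e-14). The mean with lactate was 8.67 times that with PBS in sgHcar1 cells and 9.68 times that in sgControl cells, and Hspa5 was the highest of the 36 genes in both lactate groups.

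Dnajb9 (chr12:44205897-44210068) encodes ERdj4, a J-domain cochaperone that helps BiP to hold IRE1 inactive. It reached 172, 171 and 183 FPKM in sgHcar1 cells with lactate, against 10.2, 10.3 and 9.68 FPKM with PBS, a log2 change of 3.99 ± 0.05 (SE, limma adjusted p = 5.08e-13). With the control guide it reached 45.9, 45.9 and 44.4 FPKM with lactate, against 6.58, 5.96 and 5.77 FPKM with PBS (2.71 ± 0.05, adjusted p = 6.05e-12). The groups did not overlap, and with a 28.7-fold span between its highest and lowest group mean it varied more across the 4 groups than any other of the 35 genes. Sdf2l1 (chr16:17130138-17132383), a partner of the ER J-domain proteins, reached 185, 159 and 176 FPKM in sgHcar1 cells with lactate, against 12.3, 12.5 and 13.1 FPKM with PBS. In sgControl cells it reached 131, 110.3 and 132 FPKM with lactate, against 19.8, 23.3 and 22 FPKM with PBS. These groups did not overlap either, and Sdf2l1 was lower in sgHcar1 than in sgControl cells in PBS but higher in lactate.

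Hsp90b1 (chr10:86690841-86705444), the gene of the ER Hsp90 chaperone GRP94, had smaller changes. It had 702, 691 and 713 FPKM in sgHcar1 cells with lactate, against 266, 254 and 253 FPKM with PBS (log2 change 1.44 ± 0.03). The sgControl libraries had 348, 337 and 331 FPKM with lactate, against 146, 156 and 148 FPKM with PBS (1.17 ± 0.03). Again no library of one treatment overlapped the other. The BiP exchange factor Hyou1 rose by 2.63 ± 0.04 in sgHcar1 and 2.12 ± 0.04 in sgControl cells, and the BiP cofactor Manf by 2.47 ± 0.04 and 1.94 ± 0.04. Dnajb11, another J-domain cochaperone, rose by 1.60 ± 0.04 in sgHcar1 cells and 0.75 ± 0.04 in sgControl cells, and Dnajc3, which also restrains PERK, by 1.44 ± 0.05 and 1.35 ± 0.05. The exceptions were the BiP exchange factor Sil1 and the disulfide reductase Dnajc10. Sil1 did not pass in either population, with changes of 0.02 ± 0.07 in sgHcar1 cells and 0.09 ± 0.07 in sgControl cells. For Dnajc10 the change was -0.01 ± 0.04 in sgHcar1 cells, which did not pass, and in sgControl cells it fell by 0.13 on the log2 scale (limma adjusted p = 0.0101). After rescaling to a common sum or quantile normalization, Dnajc10 fell in sgHcar1 cells too (-0.20 and -0.13). The median of all genes for that change was -0.12 after rescaling and -0.01 with quantile normalization.

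The lectin chaperones Calr and Canx, which hold glycoproteins with trimmed sugars during folding, both rose in both populations. Calr averaged 746 ± 24.7 FPKM in sgHcar1 cells with lactate, against 141 ± 3.47 FPKM with PBS (SD, n = 3 each). With the control guide it averaged 753 ± 14.5 FPKM with lactate, against 246 ± 5.64 FPKM with PBS. As deposited, the lactate levels thus lay close together while the PBS levels did not. After rescaling or quantile normalization, Calr was lower in sgHcar1 than in sgControl cells with lactate too (-0.43 and -0.79). The median of all genes for that difference was -0.37 after rescaling, close to Calr, and 0.04 with quantile normalization. Canx rose by 0.95 ± 0.03 in sgHcar1 and 0.46 ± 0.03 in sgControl cells on the log2 scale.

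Among the 7 disulfide and proline isomerases, 6 rose and 1 fell in sgHcar1 cells, and 5 rose and 1 fell in sgControl cells. Creld2 (chr15:88819646-88826681), an ER-resident protein with disulfide isomerase activity, had 416, 396 and 436 FPKM in sgHcar1 cells with lactate, against 47, 52.6 and 45.2 FPKM with PBS. In sgControl cells it had 167, 146 and 163 FPKM with lactate, against 46.5, 50.8 and 50.5 FPKM with PBS. The PBS libraries of both guides overlapped, whereas all lactate libraries of sgHcar1 cells lay above those of sgControl cells. Pdia4, Pdia6 and Pdia3, which form and reshuffle disulfide bonds, rose by 2.07 ± 0.03, 1.87 ± 0.03 and 1.29 ± 0.03 in sgHcar1 cells, and by 1.67 ± 0.03, 1.09 ± 0.03 and 0.70 ± 0.03 in sgControl cells. P4hb, the founding protein disulfide isomerase and a subunit of collagen prolyl hydroxylase, was the gene that fell. It averaged 389 ± 10.1 FPKM in sgHcar1 cells with lactate, against 421 ± 10.1 FPKM with PBS, and 267 ± 2.92 FPKM in sgControl cells with lactate, against 339.6 ± 9.45 FPKM with PBS. It was the highest of the 36 genes in both PBS groups, and ranked 5 in sgHcar1 cells with lactate and 6 in sgControl cells with lactate. The proline isomerase gene Fkbp11 rose by 0.69 ± 0.04 in sgHcar1 and 1.07 ± 0.04 in sgControl cells, and Ppib, which encodes cyclophilin B, rose in sgHcar1 cells (0.41 ± 0.07) but did not pass in sgControl cells (0.07 ± 0.07, adjusted p = 0.412).

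ERAD draws misfolded chains back to the cytosol for degradation, and 7 of its 8 tested genes rose in each population. Herpud1 (chr8:94386429-94395371), which organises the degradation complex at the membrane, had 81.6, 82.6 and 83.2 FPKM in sgHcar1 cells with lactate, against 35.4, 34.5 and 34.4 FPKM with PBS (1.22 ± 0.03). The sgControl libraries had 312, 297 and 313 FPKM with lactate, against 42.1, 42.9 and 45.3 FPKM with PBS (2.79 ± 0.03). Its lactate level was highest in sgControl cells, the opposite of the order seen for Hspa5, Dnajb9 and Creld2. Syvn1 and Sel1l, the ubiquitin ligase HRD1 and its adaptor, rose by 1.70 ± 0.04 and 1.69 ± 0.03 in sgHcar1 cells. The changes in sgControl cells were 1.70 ± 0.04 and 1.36 ± 0.03. Edem1, which trims mannose from chains marked for degradation, rose by 1.67 ± 0.04 and 1.30 ± 0.04, whereas its relative Edem2 did not pass in either population (0.05 ± 0.06 and 0.06 ± 0.06, adjusted p = 0.429 and 0.355). The retrotranslocation genes Derl1 and Derl2 rose by 1.49 ± 0.03 and 0.41 ± 0.04 in sgHcar1 cells and by 1.31 ± 0.03 and 0.61 ± 0.04 in sgControl cells, and the ERAD lectin gene Os9 by 1.01 ± 0.05 and 0.35 ± 0.05. Derl3 stayed out of the fit. It was listed at 0, 0.159 and 0.113 FPKM in sgHcar1 cells with lactate, 0.385, 0.487 and 0.316 FPKM with PBS, 0.342, 0.180 and 0.0466 FPKM in sgControl cells with lactate and 0.345, 0.190 and 0.169 FPKM with PBS. In sgHcar1 cells every lactate library lay below every PBS library, whereas in sgControl cells the treatments overlapped. Between guides, with both treatments pooled, the 6 sgHcar1 and 6 sgControl libraries overlapped (exact two-sided permutation test, p = 0.729, where 0.00216 is the smallest possible p). That test does not address the lactate change.

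Of the 4 genes of translocation and ER export, 4 rose in sgHcar1 cells, and 3 rose and 1 fell in sgControl cells. Sec24d (chr3:123264801-123365641), a cargo adaptor of the COPII vesicle coat, had 116, 108 and 115 FPKM in sgHcar1 cells with lactate, against 15.7, 16.3 and 15.7 FPKM with PBS. With the control guide it had 57.5, 54.2 and 56.9 FPKM with lactate, against 24.3, 24.6 and 23.5 FPKM with PBS. No library of one treatment overlapped the other, and the rise was 7.11 times the PBS mean in sgHcar1 cells and 2.33 times in sgControl cells. Ssr1 (chr13:37971401-37994208), a subunit of the translocon-associated complex, had 48.8, 50.1 and 49.6 FPKM in sgHcar1 cells with lactate, against 28.8, 27.9 and 28.4 FPKM with PBS. In sgControl cells it had 27.9, 26.2 and 26.3 FPKM with lactate, against 33.2, 35.6 and 32.3 FPKM with PBS. It was the one gene of the 35 that rose in one population (0.78 ± 0.04, limma adjusted p = 6.79e-09 in sgHcar1 cells) and fell in the other, by 0.32 on the log2 scale (adjusted p = 1.95e-05 in sgControl cells). The translocation channel subunits Sec61a1 and Sec61b rose by 1.56 ± 0.03 and 0.61 ± 0.05 in sgHcar1 cells and by 0.98 ± 0.03 and 0.15 ± 0.05 in sgControl cells. The sgControl call for Sec61b (adjusted p = 0.0164) was lost without either of 2 PBS libraries or 1 lactate library, at adjusted p of 0.0596 to 0.0685, and in a fit of the compared groups alone (0.0543).

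Of the 4 sensor and transcription factor genes, 4 rose in sgHcar1 cells and 3 in sgControl cells. Ern1 (chr11:106397620-106487796) had 40.3, 40.6 and 37.5 FPKM in sgHcar1 cells with lactate, against 19.2, 18.5 and 19.0 FPKM with PBS. The sgControl libraries had 16.3, 16.3 and 15.5 FPKM with lactate, against 4.24, 3.77 and 3.64 FPKM with PBS. The sgHcar1 libraries in PBS thus lay above the sgControl libraries in lactate. Atf6 (chr1:170704457-170868585) had 68.9, 71.2 and 71.0 FPKM in sgHcar1 cells with lactate, against 22.2, 22.6 and 23.0 FPKM with PBS. With the control guide it had 37.2, 35.8 and 37.2 FPKM with lactate, against 5.80, 6.03 and 6.06 FPKM with PBS. None of its 4 groups overlapped. Xbp1 (chr11:5520641-5525993) had 104, 101 and 99.3 FPKM in sgHcar1 cells with lactate, against 16.5, 16.7 and 16.3 FPKM with PBS. In sgControl cells it had 102, 107 and 102 FPKM with lactate, against 12.7, 12.7 and 14.8 FPKM with PBS. Both lactate groups overlapped, and they lay far above both PBS groups. A gene-level FPKM does not separate spliced from unspliced Xbp1. Atf6b, a relative of Atf6, rose in sgHcar1 cells (0.25 ± 0.05, adjusted p = 0.000418) and did not pass in sgControl cells (0.09 ± 0.05, adjusted p = 0.101). With each library rescaled to the same sum, or with quantile normalization, the Atf6b call moved to sgControl cells and was lost in sgHcar1 cells. After rescaling Atf6b changed by 0.07 in sgHcar1 and 0.14 in sgControl cells, beside medians of all genes of -0.12 and 0.04.

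**Figure D3:**
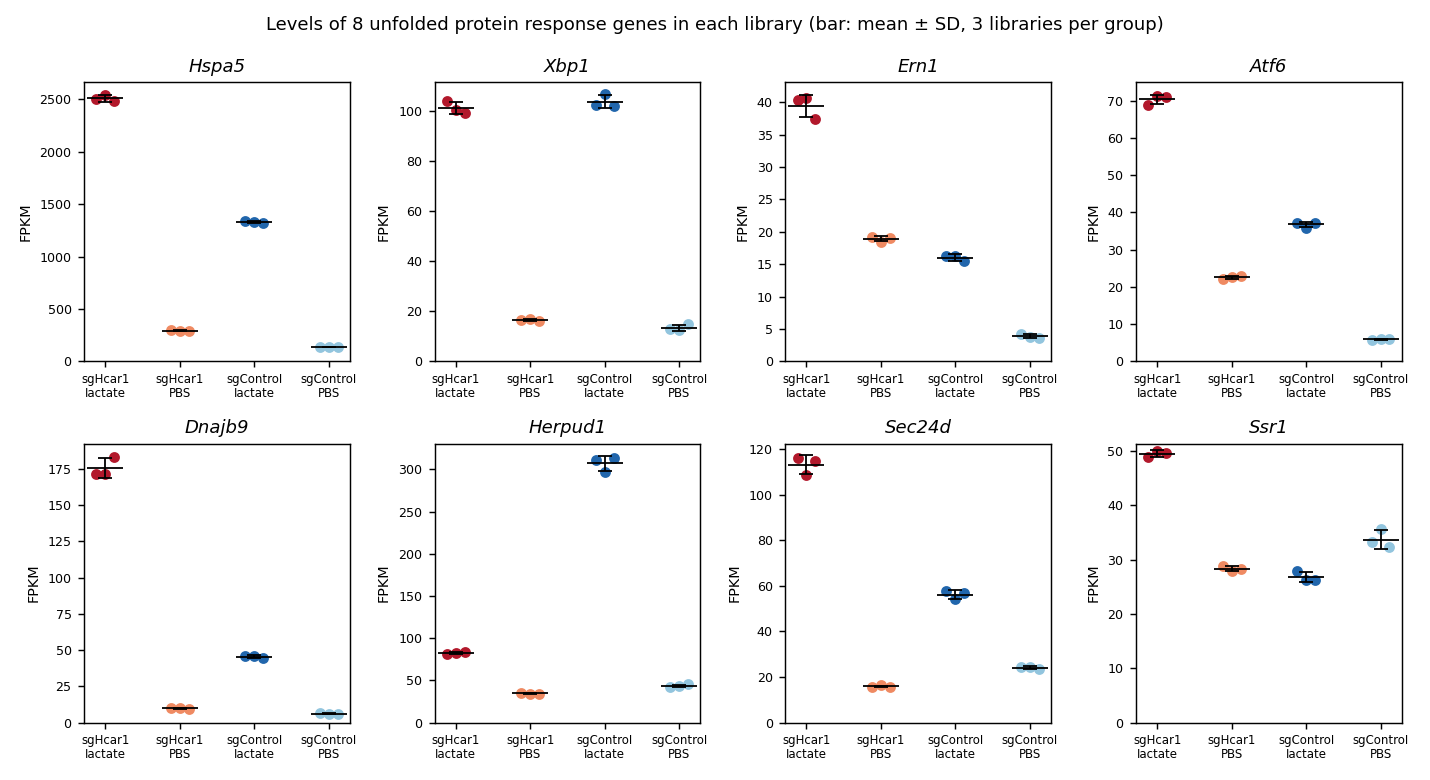
FPKM of Hspa5, Xbp1, Ern1, Atf6, Dnajb9, Herpud1, Sec24d and Ssr1 in each library (points) with the mean and SD of 3 libraries (bars), groups from left to right sgHcar1 with lactate, sgHcar1 with PBS, sgControl with lactate and sgControl with PBS. Xbp1 reaches 99.3 to 107 FPKM with lactate under either guide, Herpud1 is highest in sgControl cells with lactate, and Ssr1 falls with lactate in sgControl cells alone.

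The next comparison asked for which genes the lactate change differed between sgHcar1 and sgControl cells. The difference (change in sgHcar1 minus change in sgControl cells) passed for 29 of the 35 genes and for 59.1% of all genes. It was positive for 22 (30.4% of all genes) and negative for 7 (28.7% of all genes). The 22 and 7 became 16 and 10 when each library was rescaled to the same sum, and 14 and 9 with quantile normalization. Rescaling moved the median of all genes by itself to -0.20, and the median of the 35 genes lay 0.33 above that of all genes as deposited and 0.31 above it after rescaling, but 0.12 above it with quantile normalization. The largest positive differences were those of Sec24d (1.57 ± 0.05), Creld2 (1.42 ± 0.09), Dnajb9 (1.29 ± 0.06), Sdf2l1 (1.21 ± 0.12) and Ssr1 (1.10 ± 0.05), each with the same sign and call under every scaling tried. In the other direction, Herpud1 had a difference of -1.57 ± 0.04 (adjusted p = 2.32e-09). Of the sensor and factor genes, Atf6 had -0.84 ± 0.04, Ern1 -0.78 ± 0.07 and Xbp1 -0.32 ± 0.07, while Atf6b had 0.16 ± 0.06 and did not pass. Fkbp11 had -0.38 ± 0.06 and Derl2 -0.21 ± 0.06. Atf6 and Ern1 started higher in sgHcar1 cells and were still higher there with lactate, so the smaller change stood beside a higher level. Hspa5 differed by -0.15 ± 0.03 as deposited, by -0.39 after rescaling and by -0.86 with quantile normalization. For Syvn1 the difference was 0.00 ± 0.06 and did not pass (adjusted p = 0.996), and after rescaling or quantile normalization it passed as a lower change in sgHcar1 cells (-0.23 and -0.24).

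The last pair of comparisons set sgHcar1 against sgControl cells under the same treatment. These share libraries with the lactate comparisons above and are not independent of them. In lactate 25 genes were higher and 6 lower in sgHcar1 cells (41.3% and 40.9% of all genes), with a median log2 difference of 0.49 beside 0.01 for all genes. In PBS they were split, with 16 higher and 14 lower (38.2% and 38.4% of all genes) and a median of 0.08 beside 0.01. After rescaling to the same sum, which moved the median of all genes to -0.37 in lactate and -0.16 in PBS, the counts were 17 higher and 10 lower in lactate and 12 higher and 17 lower in PBS. Quantile normalization gave 19 higher and 12 lower in lactate, and for PBS 17 higher and 12 lower. The median of the 35 genes lay 0.48 above that of all genes in lactate and 0.07 above it in PBS as deposited. After rescaling these distances were 0.45 in lactate and 0.06 in PBS, and with quantile normalization 0.19 in lactate and 0.01 in PBS.

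The genes with the largest difference in PBS were Ern1 (2.03 ± 0.05), Atf6 (1.76 ± 0.03) and Hspa5 (1.07 ± 0.02), all higher in sgHcar1 cells. Derl1 followed at 1.01 ± 0.03, Pdia4 at 0.81 ± 0.03, Hsp90b1 at 0.78 ± 0.03 and Dnajc10 at 0.72 ± 0.04. On the lower side were Canx (-0.97 ± 0.03), Calr (-0.80 ± 0.03), Sdf2l1 (-0.73 ± 0.08), Sec24d (-0.57 ± 0.03) and Derl2 (-0.43 ± 0.04). Of these 12 genes each kept its sign and its call in PBS under the 3 scalings tried. Ern1 and Atf6 were thus higher in the PBS group in which Calr, Canx and Sdf2l1 were lower, whereas Atf6b was lower there (-0.20 ± 0.05).

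With lactate, 7 genes that had been lower in sgHcar1 cells in PBS were higher there, namely Dnajb11, Sdf2l1, Pdia3, Pdia6, Os9, Ssr1 and Sec24d. How many of all genes made the same switch was not counted, so whether 7 is unusual is not known. Among the 7, Pdia3 turned to -0.04 after rescaling and -0.28 with quantile normalization, and Pdia6 to -0.07 with quantile normalization. Sdf2l1 no longer passed in lactate under either (0.07 and 0.16), nor did Os9 (0.09) and Pdia6 (0.04) after rescaling. The largest differences with lactate were those of Dnajb9 (1.93 ± 0.05), Herpud1 (-1.89 ± 0.03) and Creld2 (1.38 ± 0.07). Herpud1, Canx, Derl2, Syvn1 and Sil1 were lower in sgHcar1 cells under both treatments. The PBS calls of Syvn1 (-0.10) and Sil1 (-0.16) were lost with quantile normalization, and that of Sil1 also without a filter and without any 1 of 6 libraries. Fkbp11 was lower in lactate (-0.20 ± 0.04) and higher in PBS (0.18 ± 0.04), but its PBS difference was -0.0013 after rescaling. Calr, Xbp1 and Atf6b did not pass in lactate, with differences of -0.01 ± 0.03, -0.03 ± 0.05 and -0.04 ± 0.05, and they passed as lower in sgHcar1 cells after rescaling and with quantile normalization. After rescaling they lay at -0.43, -0.44 and -0.45, beside a median of -0.37 for all genes. With quantile normalization they lay at -0.79, -0.36 and -0.23, beside 0.04. As deposited, Hyou1, Creld2, Ppib and Edem1 passed in lactate alone of the 2 treatments, where they were higher by 0.31 to 1.38. In lactate, after rescaling Ppib turned to -0.09 and Edem1 no longer passed (0.07), nor did Ppib with quantile normalization (0.02). In PBS, Hyou1 (-0.13), Creld2 (-0.21) and Ppib (-0.20) passed as lower after rescaling, beside a median of -0.16 for all genes. Edem1 passed as higher in PBS with quantile normalization (0.13). P4hb was higher in sgHcar1 cells in lactate (0.54 ± 0.03) and in PBS (0.31 ± 0.03), and turned to -0.12 in lactate and -0.02 in PBS with quantile normalization.

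**Figure D4:**
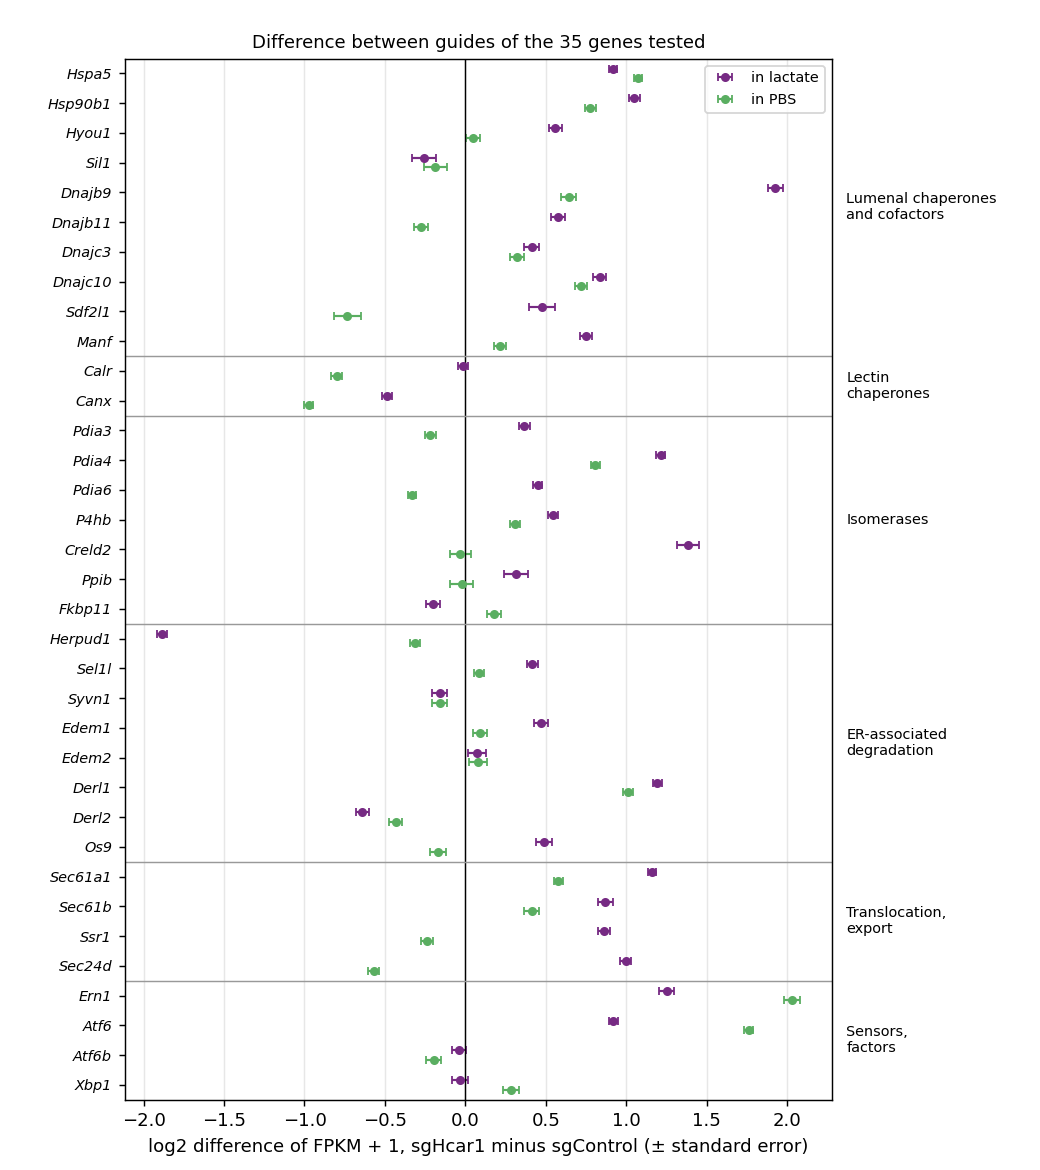
log2 difference of FPKM + 1 between sgHcar1 and sgControl cells for the 35 genes tested, as points with standard errors, in lactate (purple, upper point of a row) and in PBS (green, lower point). Ern1 and Atf6 lie farthest right in PBS, and Dnajb9 farthest right and Herpud1 farthest left in lactate. The genes left of 0 in PBS and right of 0 in lactate with both calls include Sec24d, Sdf2l1 and Ssr1.

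Other genes of ER protein handling had smaller median changes. A list of 112 further genes for disulfide formation, glycan trimming, translocation, export and ERAD had 107 tested. Of these, 75 rose and 21 fell in sgHcar1 cells (median 0.37), beside 36.8% and 35.4% of all genes. In sgControl cells 66 rose and 21 fell (median 0.25), beside 33.9% and 31.9% of all genes. In sgHcar1 cells the largest changes were those of Ero1lb, an oxidase that recharges disulfide isomerases (2.76), the ERAD ubiquitin-conjugating enzyme gene Ube2g2 (2.21), Vimp, the gene of selenoprotein S (2.14), and the COPII gene Sec24a (2.11). In sgControl cells they were those of Wfs1, an ER membrane protein gene (2.02), Ero1lb (1.77), Vimp (1.49) and Krtcap2, a subunit gene of the oligosaccharyltransferase (1.32). Each of these rose with a limma adjusted p under 0.05.

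The PERK branch, whose genes are not among the 36, had 8 of 9 genes higher with lactate in each population. Of all genes, 36.8% rose in sgHcar1 cells and 33.9% in sgControl cells. The median log2 change of the 9 was 1.10 in sgHcar1 cells and 3.68 in sgControl cells. In sgHcar1 cells the largest were Ppp1r15a, the phosphatase subunit that reverses the translation block (3.76), the transcription factor gene Ddit3 (2.54), Chac1, which degrades glutathione (1.57), and Eif2ak3, the gene of PERK itself (1.32). In sgControl cells they were Trib3 (4.61), Atf3 (4.24), Chac1 (4.23) and Ddit3 (3.92). The lactate change was lower in sgHcar1 cells for 6 of the 9 and higher for 2 (28.7% and 30.4% of all genes), beside 7 lower and 22 higher among the 35 genes of the set. These differences ranged from -4.18, the lowest of all genes tested, to 0.54. Between guides in lactate, 5 of the 9 were higher and 3 lower in sgHcar1 cells (41.3% and 40.9% of all genes). The median log2 difference was 0.12, with a range of -5.94 to 1.19. In PBS 7 were higher and 2 lower (38.2% and 38.4% of all genes), with a median of 1.16 and a range of -1.76 to 3.48. A list of 7 candidate targets of IRE1 cutting had 6 tested. In sgHcar1 cells 4 of these fell and 1 rose (35.4% and 36.8% of all genes). Among them were Scara3 at -1.83, Sparc at -1.54, Hgsnat at -0.42 and Pdgfrb at 1.04. In sgControl cells 3 fell and 2 rose (31.9% and 33.9% of all genes), with Scara3 at -0.81, Sparc at -0.37, Pmp22 at -0.28 and Col6a1 at 0.19. Between guides, the median log2 difference of the 6 was -2.61 in lactate and -2.29 in PBS, beside 0.01 for all genes in each. Pmp22 was listed at 0 in all sgHcar1 libraries, and Pdgfrb is also one of the fibroblast markers above.

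Set against the promoter sequences above, all 10 tested genes with an ERSE or ERSE-II match rose in both populations. Their median log2 change was 1.65 in sgHcar1 cells and 1.48 in sgControl cells. Of all genes tested, 36.8% rose and 35.4% fell in sgHcar1 cells, and 33.9% rose and 31.9% fell in sgControl cells. Of the 19 tested genes of the set with a window and neither motif, 16 rose and 1 fell in sgHcar1 cells (median 1.01), and 13 rose and 3 fell in sgControl cells (median 0.70). Of the 6 genes without a window, 5 rose in each population, with medians of 1.58 in sgHcar1 cells and 1.62 in sgControl cells. Xbp1, Dnajb9 and Sdf2l1, among the largest risers, had no match in the 300 bases searched. Derl3 had a match and stayed below 0.5 FPKM in every library. Outside the set, 13 tested genes matched by symbol held an ERSE or ERSE-II. Of these, 8 rose and 2 fell in sgHcar1 cells (median 0.40) and 9 rose and 2 fell in sgControl cells (median 0.36). Ero1lb, named above among the largest risers of both populations, is not counted there. Its promoter also had a match, but was listed under the symbol Ero1b, which the expression values do not use. A match is a description of the sequence, and no difference between these groups of genes was tested.

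**Figure D5:**
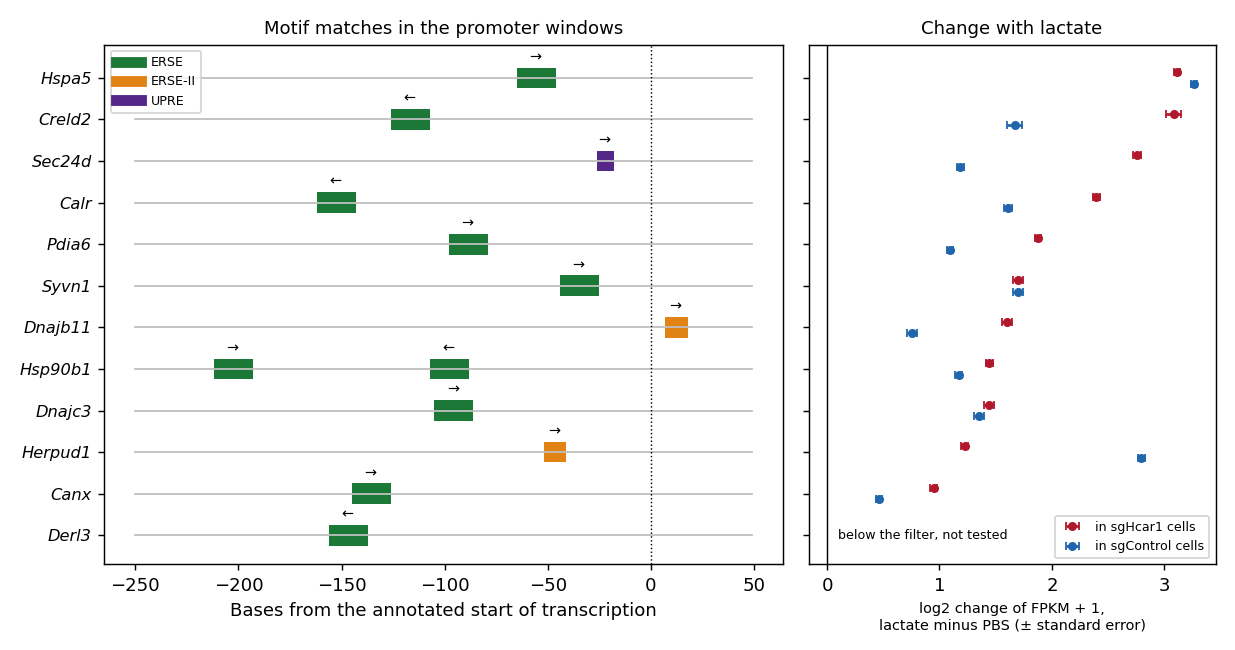
Left, positions of ERSE, ERSE-II and UPRE matches in the promoter windows of 12 genes, in bases from the annotated start (arrows give the strand relative to the gene, the dotted line the start). Right, log2 change of FPKM + 1 with lactate (± standard error) of the same genes in sgHcar1 (red) and sgControl cells (blue). Matches lie between positions -212 and 17 from the start, and all 11 tested genes lie right of 0 in both populations.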

How the data were processed

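The authors deposited 1 table of FPKM for 12 libraries, per the file headers, with 1 column per library. HISAT2 2.0.5, featureCounts 1.5.0-p3 and the build GRCm38 appear in the submitters' processing notes. Filters, strand handling and the fragments counted in the library total are not given in the sources used here, so reads of overlapping antisense genes cannot be told apart. Column letters were matched to the labels' groups, and the letter of sgHcar1 libraries was inferred by elimination. A further 26 columns without a name were empty. Values were used as deposited. The 13736 genes reaching 1 FPKM in 3 or more libraries were fitted as log2(FPKM + 1) with 1 mean per group in limma 3.58.1 (R 4.3.3), with an intensity trend and no replicate block, and Benjamini-Hochberg adjustment over all genes within each of 5 contrasts. Tests were two-sided with a threshold of 0.05. The fit was tested on simulated data. Values in every library are given for Hspa5, Hsp90b1, Xbp1, Ern1 and Atf6, for the 3 largest called changes of each contrast and for genes called in opposite directions by lactate. From each other list, up to 4 called genes per lactate contrast are named. Members and lists were chosen with earlier results of these data known. Motifs were searched in RefSeq promoter windows of GRCm38.p6. Python 3.11.15 and matplotlib 3.10.9 made tables and figures. Alternatives were another pseudocount, filters, scalings, variance models, a replicate block and leaving out each library.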

Additional observations from a re-analysis of the deposited data

Results flagged for a closer look

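The lactate change differed between sgHcar1 and sgControl cells, by limma's test of the difference itself, for 29 of the 35 genes and for 59.1% of all genes. Values are log2 differences of FPKM + 1, the change in sgHcar1 cells minus the change in sgControl cells. Among the chaperones and cofactors these were 1.29 for Dnajb9, 1.21 for Sdf2l1, 0.85 for Dnajb11, 0.53 for Manf, 0.51 for Hyou1, 0.27 for Hsp90b1 and -0.15 for Hspa5. The lectin chaperones Calr and Canx had differences of 0.79 and 0.49. Among the isomerases the values were 1.42 for Creld2, 0.78 for Pdia6, 0.59 for Pdia3, 0.41 for Pdia4, 0.34 for Ppib, 0.24 for P4hb and -0.38 for Fkbp11.

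In ERAD the differences were 0.66 for Os9, 0.38 for Edem1, 0.33 for Sel1l, 0.18 for Derl1, -0.21 for Derl2 and -1.57 for Herpud1. For translocation and export they were 1.57 for Sec24d, 1.10 for Ssr1, 0.58 for Sec61a1 and 0.46 for Sec61b. The sensors and factors had -0.84 for Atf6, -0.78 for Ern1 and -0.32 for Xbp1. With quantile normalization the differences turned to -0.39 for Hsp90b1, -0.10 for P4hb and -0.07 for Derl1, and after rescaling to a common sum to -0.06 for Derl1. The difference no longer passed with quantile normalization for Pdia3 (0.12), Pdia4 (0.01), Ppib (0.12), Sel1l (0.11) and Edem1 (0.15), nor after rescaling for Hsp90b1 (0.04), P4hb (0.01), Ppib (0.11), Sel1l (0.10) and Edem1 (0.15). The summed FPKM of sgHcar1 libraries with lactate was the highest of the 4 groups and their relative depth the lowest, and the part of either in these differences was not tested.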

How the results depend on the processing

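Of 175 member results under 22 alternatives, 131 kept their call throughout, and 127 of these kept their sign too. The other 4, none of which passed, were the lactate changes of Edem2 in both populations and of Sil1 in sgHcar1 cells, and the difference for Dnajc3. All 16 reversals that involved a call arose when each library was rescaled to a sum of 1000000 or with quantile normalization. Under rescaling, members lower with lactate in sgHcar1 cells numbered 2, members lower in sgHcar1 against sgControl cells in lactate 10, and the median change of members was 1.32 for lactate in sgHcar1 cells, 1.25 in sgControl cells, 0.11 for the difference between these, 0.0871 for the guides in lactate and -0.0915 (reversed) in PBS. Under quantile normalization the difference was higher for 14 members, 2 fell with lactate in sgHcar1 cells and 12 were lower in sgHcar1 cells in lactate, with medians of 1.32 for lactate in sgHcar1 cells, 1.34 in sgControl cells, 0.11 for the difference and 0.23 for the guides in lactate. No filter gave 2 members lower with lactate in sgHcar1 cells, the second being Derl3. A mean of at least 5 FPKM, which tested fewer genes, left 7191 of all genes called between guides in lactate and 6815 in PBS.

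Reversed by rescaling were, between guides in PBS, Fkbp11 (-0.0013), Sel1l (-0.0863) and Hyou1 (-0.13), between guides in lactate Pdia3 (-0.0444), Ppib (-0.0944) and Edem2 (-0.33), and for the difference Derl1 (-0.0595) and Syvn1 (-0.23). Reversed by quantile normalization were Hsp90b1 (-0.39), P4hb (-0.10), Derl1 (-0.0673) and Syvn1 (-0.24) for the difference, P4hb (-0.0211) between guides in PBS, and Pdia3 (-0.28), Pdia6 (-0.0723) and P4hb (-0.12) between guides in lactate. Hyou1, Edem2 and Syvn1 had not passed in these comparisons as deposited. The cause was not tested.

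Same-numbered libraries showed no large shared deviation (correlations of -0.05 to 0.09, against -0.10 to 0.08 for other pairs). Small correlations cannot show that libraries were not handled in pairs, and the labels do not state a pairing. With a replicate block 31 members were higher with lactate in sgHcar1 cells, 29 in sgControl cells, 23 for the difference, 25 between guides in lactate and 16 in PBS, and among the members only Atf6b changed, gaining 2 calls. Leaving out 1 library gave 31 members higher for lactate in sgHcar1 cells, 27 to 30 in sgControl cells, 22 to 24 for the difference, 15 to 16 between guides in PBS and 25 in lactate, the last with a median of 0.47 to 0.55 (0.55 without library 2 of sgHcar1 with lactate). Sel1l and Sil1, higher and lower in sgHcar1 cells in PBS, each lost that call without 1 of several libraries. Depth in reads is unknown, so no counting error can be given.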
